A study of Mus musculus with 2 samples.

Results

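The genes described here are the chemokine ligands, read by the cell class that held their transcripts and by injury group. Every feature whose symbol begins with Ccl, Cxcl, Xcl or Cx3cl followed by a digit was taken, which gave 44 of the 32285 features in the matrices, or 38 different symbols. Of these 44 features, 31 had a unique molecular identifier (UMI, 1 captured transcript) in the kept cells of either library, and 25 had 50 UMIs or more and are described gene by gene. The rule reads the symbols and no measured value.

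The study asked what mild traumatic brain injury (TBI) does to the meninges, the membranes around the brain. Both groups were male C57BL/6 mice (C57BL/6J and wild-type in the methods of the study), given as 10 weeks of age in one label and 10 to 12 weeks in another. The TBI group received a mild closed-skull injury and the Sham group a sham procedure, and the dorsal meninges were taken 1 week later. Tissue of 5 mice was pooled per group, digested, sorted for live single cells without a lineage gate and made into 1 droplet library. With 1 library a group, injury, pool and library cannot be told apart, no test between groups was possible, and every interval below covers counting error only.

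Chemokines are small secreted proteins that steer the movement of cells bearing matching G protein-coupled receptors. Some are made at rest and set where immune cells settle, as Cxcl12 does through Cxcr4. Others are switched on by interferon or by microbial and damage signals, as Cxcl9 and Cxcl10 are, and draw in T cells, natural killer (NK) cells or monocytes. In the meninges, resident macrophages, dendritic cells, lymphocytes and stromal cells all lie close to the vessels through which immune cells enter.

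The Sham matrix had 2699 barcodes with 9527334 UMIs and the TBI matrix 4349 with 15011079, of which 2043 Sham and 3773 TBI cells were kept, with medians of 2764 and 2663 UMIs per cell. Kept cells fell into 21 classes, written "X-like" where at least 3 markers of a cell type were among the leading genes of the cluster, and otherwise called by their leading gene. The libraries shared 14 barcodes among kept cells. Predicted doublets were kept. Their share was set beforehand at 0.8% per 1000 cells, which gave 1.62% of Sham and 3.02% of TBI cells, so it is not a measured rate. The classes were not evenly filled: fibroblast-like cells numbered 67 in Sham and 452 in TBI, and B cell-like cells 369 and 288.

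Printed next are the 250 bases before the start of 4 ligand genes that macrophage-like cells led, because the results compare Cxcl9 with Cxcl10 and Ccl12 with Ccl8, which are neighbours in the genome. They come from RefSeq on the mouse build GRCm38.p6 and run 5′ to 3′ along the strand of the gene. Cxcl9 lies at chr5:92328080-92328329 on the minus strand, Cxcl10 at chr5:92348890-92349139 on the minus strand, Ccl12 at chr11:82101595-82101844 on the plus strand and Ccl8 at chr11:82114935-82115184 on the plus strand. Capitals mark matches, on either strand, to the letters GAAANNGAAA (the interferon-stimulated response element), GGGNNNNNCC (NF-kB) and TATAAA (the letters of a TATA box).
Cxcl9: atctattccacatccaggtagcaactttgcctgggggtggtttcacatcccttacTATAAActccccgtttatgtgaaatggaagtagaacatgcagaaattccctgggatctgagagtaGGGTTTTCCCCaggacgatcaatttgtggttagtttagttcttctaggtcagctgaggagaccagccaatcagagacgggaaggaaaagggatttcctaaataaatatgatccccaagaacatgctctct
Cxcl10: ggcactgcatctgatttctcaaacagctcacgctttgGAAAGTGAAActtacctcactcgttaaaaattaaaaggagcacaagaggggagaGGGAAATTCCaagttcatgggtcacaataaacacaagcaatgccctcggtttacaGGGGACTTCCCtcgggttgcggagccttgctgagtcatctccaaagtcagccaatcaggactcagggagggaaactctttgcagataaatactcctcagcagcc
Ccl12: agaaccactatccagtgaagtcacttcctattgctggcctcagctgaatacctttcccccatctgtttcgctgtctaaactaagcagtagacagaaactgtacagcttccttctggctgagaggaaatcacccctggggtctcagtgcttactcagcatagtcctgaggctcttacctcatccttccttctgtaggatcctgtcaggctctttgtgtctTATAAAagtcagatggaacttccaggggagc
Ccl8: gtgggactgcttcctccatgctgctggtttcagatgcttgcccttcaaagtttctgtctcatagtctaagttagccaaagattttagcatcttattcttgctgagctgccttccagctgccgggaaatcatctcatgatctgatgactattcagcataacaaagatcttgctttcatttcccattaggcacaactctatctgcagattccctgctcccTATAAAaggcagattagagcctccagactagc

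The Cxcl10 stretch held an interferon-stimulated response element match at position -213 relative to the start and NF-kB matches at -159, -104 and -103, the last 2 overlapping. The Cxcl9 stretch held 2 overlapping NF-kB matches, at -130 and -129, and the letters TATAAA at -195, far from the start. Ccl12 and Ccl8 each held the TATA box letters close to the start, at -31 and -32, and no match to the other letters in this window. Over the 27025 mouse promoters of the table, 3.038% held the interferon-stimulated response element letters, 45.37% the NF-kB letters and 12.97% the TATA box letters. Among the 19 described ligands that had an entry, 3 (Ccl19, Cxcl10 and Cxcl14), 10 and 6 held them. The letters TTCNNNGAA, the gamma-activated site, were in 7.179% of all promoters and in 2 of the 19, Ccl17 and Cxcl14. Such matches describe letters and no binding was measured.

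Chemokine ligand transcripts came mostly from few classes. All members together held 21066 of the Sham UMIs, or 26.78 per 10000 (95% exact binomial interval 26.42 to 27.14), and 32678 of the TBI UMIs, or 23.44 per 10000 (23.19 to 23.7). Macrophage-like cells held 26.76% of these UMIs, NK cell-like cells 24.34%, migratory dendritic-like cells 15.25% and T cell-like cells 10.34%. The share of migratory dendritic-like cells is set against 1.735% of all UMIs, that of NK cell-like cells against 4.16% and that of T cell-like cells against 5.362%. Macrophage-like cells held 23.57% of all UMIs, so their share of ligand UMIs was close to their share of all UMIs. Ligands took 27.98 per 10000 UMIs in macrophage-like cells of both libraries, beside 24.64 in all kept cells. Per 10000 UMIs of the class, ligands took 190.3 in Sham and 239.1 in TBI in migratory dendritic-like cells, and 151.3 and 137.6 in NK cell-like cells. With the 3 cells richest in ligands left out of each library, these values were 156.4 and 161.4, and 133.6 and 114.1. As a mean over cells they were 195.3 and 237.3, and 156.2 and 175.6, so the order turned in NK cell-like cells. B cell-like cells lay at the other end, with 0.2925 and 0.8556 per 10000.

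**Figure D1:**
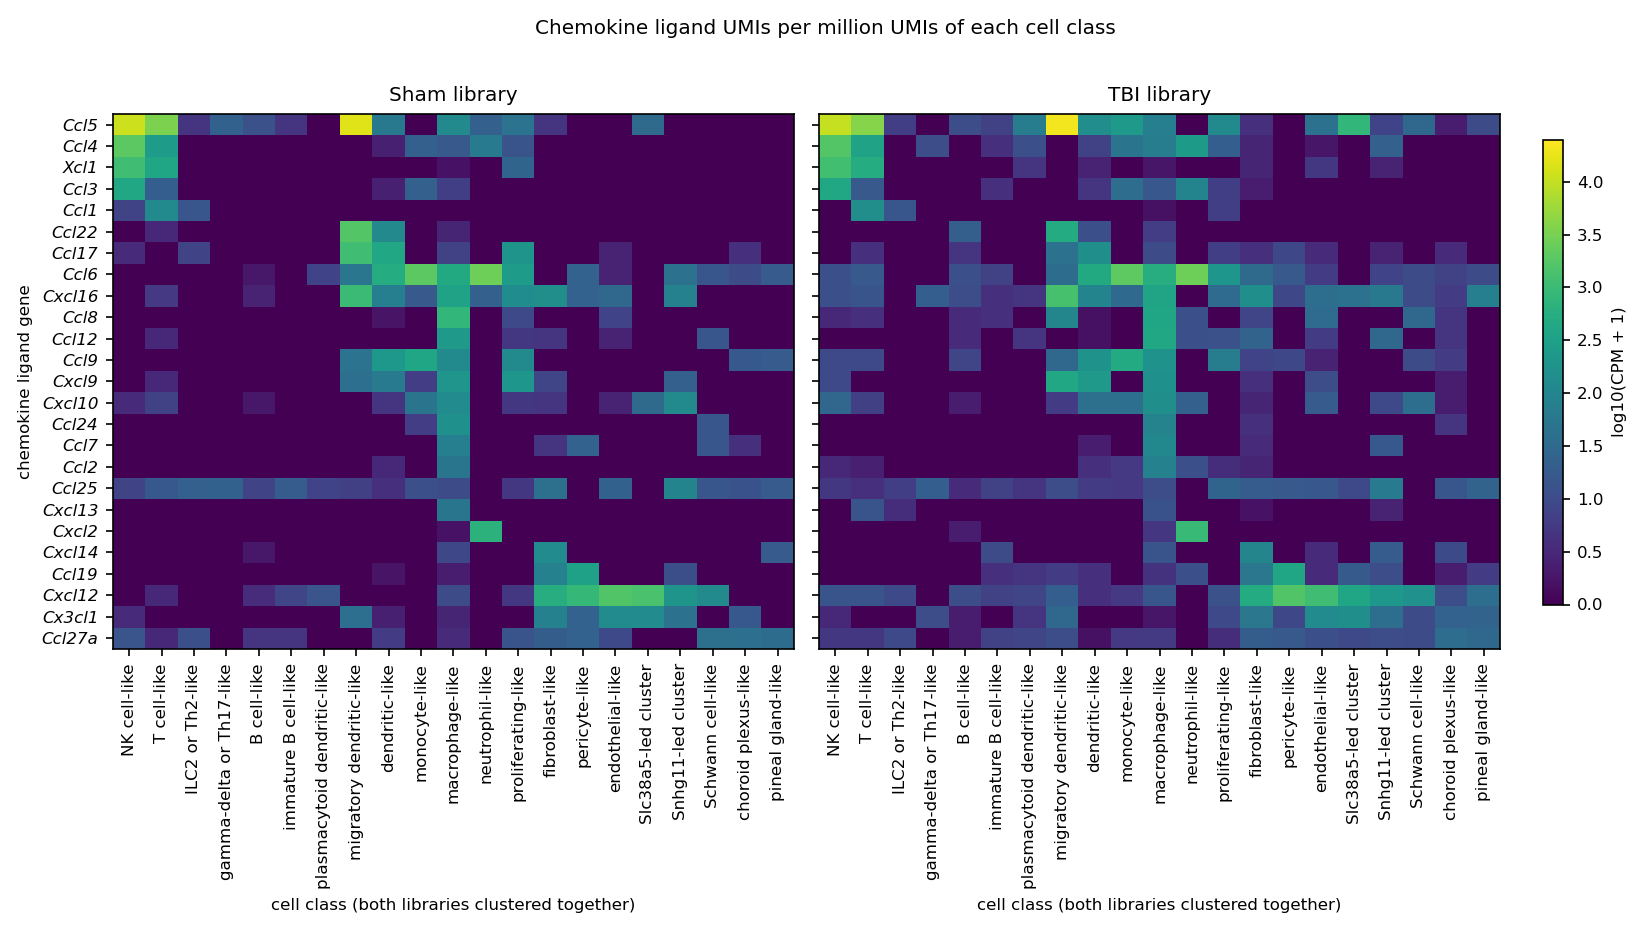
Chemokine ligand levels by cell class, with 25 genes as rows, 21 classes as columns and 1 panel per library; colour is log10(CPM + 1), where CPM is UMIs of the gene per 1000000 UMIs of the class. Lymphoid ligands lie mainly in the NK cell-like and T cell-like columns at the left. Ccl5 reaches its highest levels in migratory dendritic-like and NK cell-like cells, and Cxcl12 fills the fibroblast-like, pericyte-like and endothelial-like columns in both libraries.

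Lymphoid cells carried most UMIs of 5 ligands, Ccl5, Xcl1, Ccl3, Ccl4 and Ccl1. Ccl5, which attracts T cells and monocytes, was the ligand with most UMIs, 9628 in Sham and 12813 in TBI. NK cell-like cells held 44.36% of them, migratory dendritic-like cells 31.13% and T cell-like cells 19.51%. Ccl5 was found in 89.66% of Sham and 90.55% of TBI NK cell-like cells, against 1.979% of the B cell-like cells of both libraries. B cell-like cells are not a known source, and their share serves as the background level; whether it came from free RNA, doublets or misplaced cells was not tested. Median depths of these cells were 3331 and 2828 UMIs.

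In NK cell-like cells the Ccl5 level was 11570 CPM in Sham and 10410 in TBI, a log2 ratio of TBI over Sham of -0.15 (95% interval -0.21 to -0.10). Its direction differed between 2 parts of this class, given with Xcl1 below. T cell-like cells had 3429 and 3955 CPM (0.21, 0.12 to 0.30). The share of T cell-like cells with a Ccl5 UMI was 37.04% in Sham and 55.85% in TBI, and 39.22% and 56.02% after thinning to 1000 UMIs per cell. Cells with fewer than 1000 UMIs, 388 in Sham and 539 in TBI over all classes, cannot be thinned. They were left out of every thinned share, so its cells are not all cells of the class. The share of T cell-like cells thus differed by more between the libraries than the level of the class did.

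Xcl1, or lymphotactin, whose receptor Xcr1 marks cross-presenting dendritic cells, was held to 63.59% by NK cell-like and to 34.98% by T cell-like cells. With clustering at a resolution of 0.4 or 1.6, T cell-like cells held most of its UMIs. Its NK cell-like level was 1115 CPM in Sham and 1148 in TBI (log2 ratio 0.04, -0.14 to 0.22), and its T cell-like level was 403.2 and 536.3 CPM (0.41, 0.16 to 0.67, and -0.0017 at either other resolution). No B cell-like cell of 657 held an Xcl1 UMI, which allows a share of up to 0.4566%. Clustering at a resolution of 1.6 divided the 243 NK cell-like cells into a part led by Gzma (129 cells) and a part led by Klra1 (114 cells). By the marker rule the latter was named T cell-like, with 7 T cell and 6 NK cell markers among its leading genes. The part led by the cytotoxic granule gene Gzma had Ccl5 at 16600 CPM, Ccl4 at 3616 and Xcl1 at 982.2, and the part led by the inhibitory receptor gene Klra1 had 5666, 124.1 and 1271 CPM. In Sham and TBI, the Gzma-led part had Ccl5 at 17330 and 15640 CPM, Xcl1 at 850.7 and 1155 and Ccl4 at 3443 and 3843. The Klra1-led part had Ccl5 at 3949 and 6834 CPM, Xcl1 at 1459 and 1143 and Ccl4 at 58.15 and 169. Sham and TBI cells numbered 72 and 57 in the Gzma-led cluster and 45 and 70 in the Klra1-led cluster. The class levels also depend on this mix, whose part was not tested. Ligand genes were among the genes leading those parts, so these values are a description.

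Ccl3 and Ccl4, made by activated lymphocytes and macrophages, stood out by how few cells held them. NK cell-like cells held 77.38% of the Ccl3 and 69.7% of the Ccl4 UMIs. Ccl4 was found in 30 of 116 Sham and 32 of 127 TBI NK cell-like cells, at 1991 and 1662 CPM (log2 ratio -0.26, -0.40 to -0.12). The ratio turned to 0.85 as a mean over cells and to 0.16 at either other clustering resolution. A single TBI cell held 331 Ccl4 UMIs, 17.71% of its 1869 UMIs, together with 102 of Ccl3 and 48 of Ccl5. The richest Sham cell held 244 Ccl4, 111 Ccl3 and 97 Ccl5 UMIs. When the 3 cells richest in each gene were left out of each library, 296 Sham and 142 TBI UMIs of Ccl4 were left in NK cell-like cells (-1.18), and 34 and 14 of Ccl3 (-1.38).

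Ccl1, a ligand of Ccr8, came mostly from a handful of T cell-like cells: 56 UMIs in 2 Sham cells and 103 in 4 TBI cells. ILC2 or Th2-like cells held 5.143% of its UMIs, in 7 of 224 cells. The TBI cell with 58 Ccl1 UMIs also held 133 of Ccl4, 85 of Xcl1 and 32 of Ccl5, and the Sham cell with 40 also held 84 of Ccl4, 25 of Xcl1 and 6 of Ccl5. Both cells carried the same 4 ligands at once. Ccl4 in T cell-like cells was found in 7 of 135 Sham cells and 24 of 188 TBI cells, at 255.2 and 342.8 CPM (log2 ratio 0.42, 0.10 to 0.76). Without the 3 richest cells of each library, 6 and 39 UMIs were left (1.98).

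Migratory dendritic-like cells, with 23 cells in Sham and 28 in TBI and the lymph node homing receptor gene Ccr7 at 3377 CPM, held the highest class level of Ccl5, 15090 CPM in Sham and 21340 in TBI (log2 ratio 0.50, 0.43 to 0.57). Of these cells, 21 of 23 and 26 of 28 had a Ccl5 UMI. The richest TBI cells held 1065 and 633 UMIs, 7.696% and 9.548% of all their RNA counts, and the richest Sham cell held 419. All ligands together took 190.3 per 10000 UMIs of this class in Sham and 239.1 in TBI. With the 3 cells richest in ligands left out of each library, they took 156.4 and 161.4. As a mean over cells they took 195.3 and 237.3. Cxcl16, which exists both tethered to the membrane and shed and binds Cxcr6, was in 20 of 23 Sham and 28 of 28 TBI cells, at 989.2 and 1326 CPM (0.42, 0.14 to 0.71).

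Ccl17 and Ccl22, the ligands of Ccr4, were lower in TBI but rested on few Sham cells. Ccl22 in migratory dendritic-like cells had 290 UMIs in 11 Sham cells and 103 in 17 TBI cells, 1658 and 506 CPM (log2 ratio -1.71, -2.05 to -1.38). Leaving out the 3 richest cells per library left 38 and 29 UMIs (-0.69). Ccl17 in the same class had 194 UMIs in 8 Sham cells, 123 of them in 1 cell, and 9 UMIs in 4 TBI cells (-4.58, -5.80 to -3.69), and 15 and 1 UMIs without the 3 richest cells. Ccl22 was found in 47.83% of Sham and 60.71% of TBI cells, and in 35.0% and 24.0% after thinning, so the shares give no order.

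Dendritic-like cells, in which Xcr1, Clec9a and Cd209a were among the leading genes, depended on a single Sham cell for both ligands. That cell held 471 of the 557 Sham Ccl17 UMIs of the class and 143 of its 159 Ccl22 UMIs, out of 12317 UMIs in all. The class sums gave 409.5 CPM in Sham and 152.3 in TBI for Ccl17 (log2 ratio -1.43, -1.65 to -1.21). Leaving out the 3 richest cells per library turned the ratio to 1.20, with 41 and 117 UMIs. For Ccl22 the counts of 159 and 18 became 0 and 6. The share of dendritic-like cells with Ccl17 was 10.46% in Sham and 13.33% in TBI, and 5.755% and 6.5% after thinning.

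Cxcl9, an interferon-induced ligand of Cxcr3 that attracts activated T cells and NK cells, was higher in TBI in dendritic-like cells. It had 89 UMIs in 8 of 153 Sham cells and 380 in 12 of 240 TBI cells, 65.43 and 226.9 CPM (log2 ratio 1.79, 1.46 to 2.14). The shares of cells with a UMI were close, 5.229% and 5.0%, and the cells that held it held more in TBI. The ratio was 2.15 without the 3 richest cells per library, from 12 and 68 UMIs, and 3.24 at a clustering resolution of 1.6. Ccl5 in the same class was at 58.82 and 141.5 CPM (1.26, 0.90 to 1.65), but 0.94 without the 3 richest cells, 0.57 without predicted doublets and -0.19 as a mean over cells. Cxcl10 had 5 UMIs in 2 Sham and 69 in 8 TBI cells, 37 of them in 1 cell, and was no longer past 2-fold as a mean over cells (0.998).

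Of 8 members tested in dendritic-like cells, 5 were past 2-fold, where 2.37% of all 7310 features tested were. By class sums, those higher in TBI were Cxcl9, Cxcl10 and Ccl5, and those lower were Ccl22 and Ccl17. A feature counted as tested when both libraries together had 30 UMIs of it in the class. In migratory dendritic-like cells, 3 of 5 members were past 2-fold against 6.66% of all features: Cxcl9 was higher, with 89 of its 90 TBI UMIs in 1 cell (log2 ratio 0.31 at a clustering resolution of 1.6), and Ccl22 and Ccl17 were lower. The macrophage marker list of 18 genes summed to 354.5 CPM in Sham and 1533 in TBI in migratory dendritic-like cells, and its part in these values was not tested.

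Macrophage-like cells, 364 in Sham and 780 in TBI, held between 90.98% and 98.33% of the UMIs of 6 ligands. These were Ccl2, Ccl7 and Ccl12, which draw in monocytes through Ccr2, Ccl8, a ligand of Ccr8 in the mouse, Ccl24 (eotaxin-2), which draws in eosinophils through Ccr3, and Cxcl13, which draws B cells through Cxcr5. By UMIs they also led Ccl6, Ccl9, Cxcl16, Cxcl9 and Cxcl10. By CPM, Cxcl16 and Cxcl9 were highest in migratory dendritic-like, Ccl9 in monocyte-like and Ccl6 in neutrophil-like cells. Cxcl16 was found in 46.98% of Sham and 58.21% of TBI cells and Ccl6 in 51.92% and 57.44%. The Cxcl16 shares became 27.38% and 27.42% after thinning, and those of Ccl6 29.28% and 29.24%. Median depth was 2235.5 UMIs in Sham and 3883 in TBI macrophage-like cells. The shares of both genes differed by less between the libraries after thinning, for which 923 macrophage-like cells were deep enough.

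**Figure D2:**
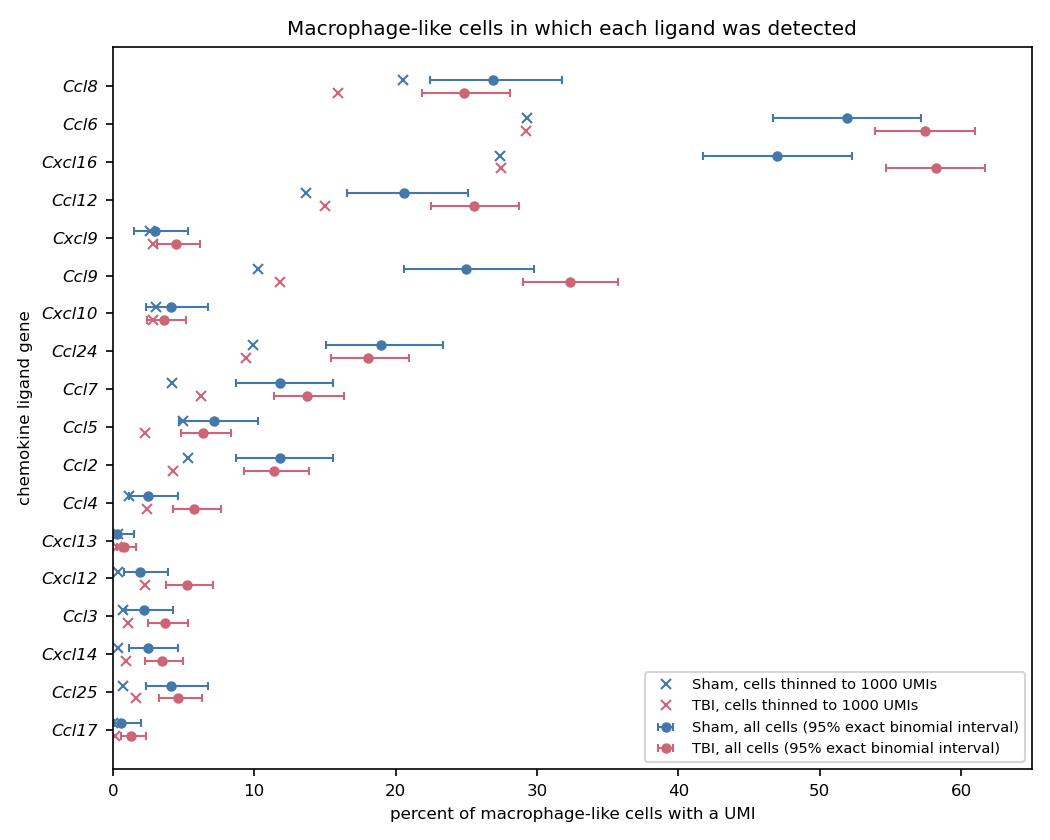
Percent of macrophage-like cells with at least 1 UMI of each ligand, for all cells (points, with 95% exact binomial intervals) and after thinning to 1000 UMIs per cell (crosses), in 364 Sham (blue) and 780 TBI (red) cells before thinning. Cells with fewer than 1000 UMIs are left out of the crosses. The thinned crosses of Cxcl16 and Ccl6 coincide between libraries, and those of Ccl8 lie at 20.53% in Sham and 15.91% in TBI.

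The Ccr2 ligands were higher in TBI in this class. Ccl12 had 364 UMIs in 75 Sham cells and 1471 in 199 TBI cells, 228.2 and 414.9 CPM (log2 ratio 0.86, 0.70 to 1.03). Ccl2 was at 50.78 and 85.18 CPM (0.74, 0.39 to 1.12) and Ccl7 at 78.99 and 112.5 CPM (0.51, 0.22 to 0.81). The direction was the same without the 3 richest cells per library for Ccl12 (1.01), Ccl2 (0.65) and Ccl7 (0.50). The TBI cell richest in Ccl12, with 168 UMIs, was a predicted doublet. Ccl2 was found in 11.81% of Sham and 11.41% of TBI cells, so its higher level in TBI was not matched by the share of cells.

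Ccl8 went the other way: 1295 UMIs in 98 Sham cells and 1448 in 194 TBI cells, or 811.8 and 408.4 CPM (log2 ratio -0.99, -1.10 to -0.88). One Sham cell held 222 of them, and the ratio was -0.63 without the 3 richest cells per library. Its share of cells was 26.92% and 24.87%, and 20.53% and 15.91% after thinning. Ccl24 was at 163 CPM in Sham and 92.52 in TBI (-0.82, -1.06 to -0.58), but -0.14 without the 3 richest cells, of which the richest Sham cell held 55 of 260 UMIs.

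Of 18 members tested in macrophage-like cells, 3 were past 2-fold, against 2.49% of 8979 features: Ccl4 and Ccl3 were higher in TBI and Cxcl13 was lower. Ccl4 had 25 UMIs in 9 Sham cells and 248 in 45 TBI cells, 15.67 and 69.95 CPM (log2 ratio 2.13, 1.56 to 2.81). The ratio was 2.40 without the 3 richest cells, 1.47 without predicted doublets and 1.50 as a mean over cells. Ccl3 had 9 UMIs in 8 cells and 51 in 29 cells (1.29, 0.31 to 2.56). Thinned shares for Ccl4 were 1.141% and 2.424% of cells. The NK cell marker list of 14 genes summed to 0.6269 CPM in Sham macrophage-like cells, with 13 genes at 0, and to 20.31 CPM in TBI, with 2 at 0, and its part in the Ccl3 and Ccl4 values was not tested.

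All 79 Sham UMIs of Cxcl13 were in 1 cell, and 6 TBI cells held 42. The median log2 ratio of the 18 members was 0.39, beside 0.02 over all features tested. With the 3 cells richest in each gene left out of each library, 6 of 16 members were past 2-fold, all higher in TBI: Ccl3, Ccl4, Ccl12, Cxcl10, Cxcl12 and Cxcl14. Of all features, 3.66% were past 2-fold in either direction under the same treatment. The class had 364 Sham and 780 TBI cells, so leaving out 3 cells takes a larger part of Sham. The effect of this on the direction of the ratios was not tested. The red cell marker list summed to 1847 CPM in Sham and 247.9 in TBI macrophage-like cells, and its part was not tested.

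Cxcl9 and Cxcl10 were held by a small part of the macrophage-like cells and were very uneven among them. Cxcl9 had 318 UMIs in 11 Sham and 573 in 35 TBI cells, 199.3 and 161.6 CPM (log2 ratio -0.30, -0.50 to -0.10), and 1.00 without the 3 richest cells per library. Cxcl10 had 208 UMIs in 15 Sham and 543 in 28 TBI cells, 130.4 and 153.2 CPM (0.23, -0.0010 to 0.47), and 1.04 without them. The 10 richest cells of both libraries together held 64.28% of all Cxcl9 and 66.81% of all Cxcl10 UMIs. The TBI cell with 101 Cxcl10 UMIs also held 57 of Cxcl9, 19 of Ccl22, 19 of Ccl12 and 15 of Ccl7.

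The macrophage-like class was made of 3 clusters, and the ligand differences were not alike in them. The cluster led by Cd209f and by Folr2, a gene of border-associated macrophages, had 119 Sham and 311 TBI cells. The cluster led by Klra2, Fcgr4, Cx3cr1 and Trem2 had 110 and 270. A shallow cluster with a median of 891 UMIs, led among genes outside the ligand list by Cd209g, had 135 and 199. The differences between clusters given next were not tested.

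In the Klra2-led cluster the Ccr2 ligands were at low Sham levels and higher in TBI. Ccl2 was at 26.84 CPM in Sham and 109.5 in TBI (log2 ratio 2.00, 1.40 to 2.72), Ccl7 at 17.51 and 86.9 (2.27, 1.54 to 3.19) and Ccl12 at 124.9 and 347 (1.47, 1.18 to 1.79). Ccl2 was found in 11 of 110 Sham and 32 of 270 TBI cells. Ccl4 was at 10.5 and 100 CPM (3.18, 2.29 to 4.41), with 92 of its 168 TBI UMIs in 1 cell, a predicted doublet, and Ccl3 at 3.501 and 23.81 CPM. The same predicted doublet held 168 of the 583 TBI UMIs of Ccl12 and 22 of the 184 of Ccl2. Ccl7 was found in 7.273% of Sham and 8.519% of TBI cells, and Ccl12 in 20.0% and 19.63%. Ccl2, Ccl7 and Ccl12 stayed past 2-fold without the 3 richest cells per library, at 2.59, 2.45 and 1.29. The Sham and TBI UMIs then left were 8 and 101 of Ccl2, 5 and 59 of Ccl7 and 60 and 294 of Ccl12.

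The Cd209f-led cluster held these ligands already in Sham. Ccl2 was at 93.44 CPM in Sham and 66.76 in TBI (log2 ratio -0.49, -0.96 to 0.0067), Ccl7 at 181.9 and 145.8 (-0.32, -0.65 to 0.02) and Ccl12 at 380.4 and 515.1 (0.44, 0.22 to 0.65). Ccl8 was at 1570 and 601.5 CPM (-1.38, -1.52 to -1.25), or -0.90 without the 3 richest cells, and was found in 51.26% of Sham and 39.55% of TBI cells. Ccl9 was at 86.77 and 171.5 CPM (0.97, 0.55 to 1.44). Cxcl9 was at 0 in Sham and had 175 UMIs in TBI, 149 of them in 1 cell. By UMI counts alone this was at least 21.41-fold higher against a floor of 3 counts per library. It was found in 0 of 119 Sham cells (interval up to 3.052%) and 8 of 311 TBI cells (2.572%), so the cells give no such bound.

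In the shallow Cd209g-led cluster none of the 5 members tested was past 2-fold, against 5.55% of all features. Ccl8 there was at 1179 CPM in Sham and 1452 in TBI (log2 ratio 0.30, 0.03 to 0.58), where the ratio was -1.38 in the Cd209f-led and -1.54 in the Klra2-led cluster. In the Klra2-led cluster 6 of 17 members were higher and 3 lower past 2-fold, against 3.18% of features in either direction. The 3 lower ones rested on 1 Sham cell each, with 79 of 79 UMIs of Cxcl13, 55 of 58 of Ccl24 and 130 of 190 of Ccl8. Without the 3 richest cells per library, Cxcl13 was left with no UMI, Ccl24 with 0 and 2, and Ccl8 at a log2 ratio of -0.84. In the Cd209f-led cluster 3 of 12 were higher and 1, Ccl8, lower, against 3.05%. The 3 higher ones rested on 1 TBI cell each, with 149 of 175 UMIs of Cxcl9, 61 of 102 of Cxcl10 and 32 of 38 of Cxcl13. Without the 3 richest cells 6, 7 and 1 TBI UMIs were left, and Ccl8 was no longer past 2-fold.

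**Figure D3:**
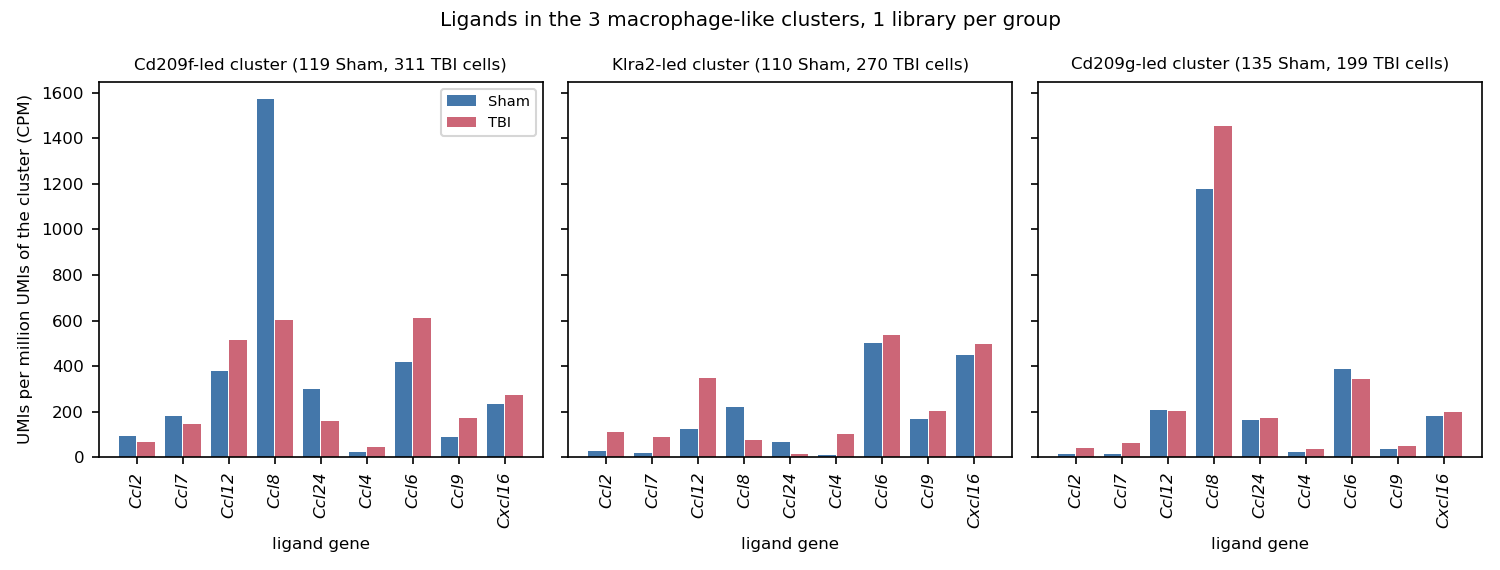
UMIs per 1000000 UMIs of the cluster (CPM) for 9 ligands in the 3 macrophage-like clusters, Sham in blue and TBI in red, with 1 library per bar and therefore no error bar. Ccl2, Ccl7 and Ccl12 are higher in TBI in the Klra2-led cluster, and Ccl8 is lower in TBI in the Cd209f-led cluster and not in the Cd209g-led cluster.

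Ccl6 and Ccl9 are rodent myeloid chemokines and ligands of Ccr1. By UMIs macrophage-like cells led both, with 47.85% of Ccl6 and 48.37% of Ccl9, followed by dendritic-like cells with 26.55% and 34.56%. Monocyte-like cells held both as well, and neutrophil-like cells held Ccl6. In monocyte-like cells Ccl6 was at 1942 and 2026 CPM in Sham and TBI (log2 ratio 0.06, -0.14 to 0.26), and at 2688 and 2697 CPM in neutrophil-like cells (0.0019, -0.31 to 0.33). In dendritic-like cells it was at 533 and 467.5 CPM (-0.19, -0.34 to -0.04) and in macrophage-like cells at 461.4 and 559 (0.28, 0.15 to 0.40). The 4 ratios lay between -0.19 and 0.28. Ccl9 was at 392.7 and 490.8 CPM in monocyte-like, 219.8 and 175.5 in dendritic-like and 125.4 and 177.7 in macrophage-like cells.

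Cxcl2, which recruits neutrophils through Cxcr2, was held to 87.88% by neutrophil-like cells, but by only 3 of 16 in Sham and 3 of 26 in TBI, with 31 and 85 UMIs. The richest, a TBI cell with 44 Cxcl2 UMIs out of 1428, also held 22 of Ccl4 and 9 of Ccl3. None of the 2 members tested in neutrophil-like cells was past 2-fold, against 7.48% of features. In monocyte-like cells 1 of 3 was, Ccl5, with 51 of its 54 TBI UMIs in 1 cell and none in Sham, against 4.68% of features. The macrophage marker list summed to 4696 CPM in Sham and 3279 in TBI monocyte-like cells, and its part was not tested.

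Stromal and vessel cells held the ligands known for steady positioning of cells. Cxcl12, the ligand of Cxcr4, was held to 58.54% by endothelial-like, 25.19% by fibroblast-like and 6.085% by pericyte-like cells. In endothelial-like cells it had 924 UMIs in 162 of 297 Sham cells and 1356 in 261 of 538 TBI cells, 1574 and 1123 CPM (log2 ratio -0.49, -0.61 to -0.37), and -0.45 without the 3 richest cells. The cluster led by Sema3g and Gja5, genes of arterial endothelium, had 4585 CPM in Sham and 3001 in TBI (-0.61, -0.80 to -0.43). The cluster led by the capillary gene Gpihbp1 had 1237 and 1248 CPM (0.01, -0.15 to 0.18), and that led by Vwf 84.06 and 48.6. The Gpihbp1-led cluster had 191 Sham and 302 TBI cells, the Sema3g-led 49 and 92 and the Vwf-led, lowest in Cxcl12, 57 and 144, so the class level also depends on the mix of clusters, whose part was not tested.

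Fibroblast-like cells had Cxcl12 at 552.7 CPM in Sham and 506.6 in TBI (log2 ratio -0.13, -0.38 to 0.14), in 56.72% and 54.2% of cells. Pericyte-like cells had 838.3 and 1617 CPM (0.93, 0.43 to 1.50), where 25 of 36 Sham UMIs were in 1 cell. Cx3cl1 (fractalkine), the membrane-tethered ligand of Cx3cr1, was in 18.18% and 22.12% of endothelial-like cells, at 132.9 and 130 CPM (-0.04, -0.43 to 0.38). Cxcl14 came to 70.11% from fibroblast-like cells, at 130.7 and 98.51 CPM (-0.42, -0.94 to 0.16). Ccl19, a ligand of Ccr7, was split between fibroblast-like and pericyte-like cells, with 23 and 91 UMIs in the former and 14 and 50 in the latter. The intervals of Cxcl12 in fibroblast-like cells, of Cx3cl1 and of Cxcl14 included a log2 ratio of 0, that is, equal levels.

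In the whole libraries, Ccl19 and Cxcl14 were more than 2-fold higher in TBI (log2 ratio 1.26 and 1.37), as were Ccl12 (1.24) and Ccl2 (1.08). Ccl17 (-2.18), Ccl22 (-2.35), Cxcl13 (-1.37), Ccl11 (-1.79) and Ccl21a (-4.13) were lower, so 9 of 27 members with 30 UMIs or more were past 2-fold, against 9.97% of all features. Fibroblast-like cells were 3.279% of Sham and 11.98% of TBI cells, and the Snhg11-led cluster, counted apart, was 2.643% and 8.163%. Within fibroblast-like cells Ccl19 and Cxcl14 were not higher in TBI, at log2 ratios of -0.66 (-1.31 to 0.09) and -0.42.

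Several ligands past 2-fold in stromal classes were myeloid or lymphoid ligands held by 1 or a few cells. In fibroblast-like cells 3 of 9 members were past 2-fold against 7.16% of features: Ccl12 with 37 of 40 TBI UMIs in 1 cell, Ccl6 with 35 of 53, and Ccl25, lower in TBI. The cell with 37 Ccl12 UMIs and the cell with 35 Ccl6 UMIs were predicted doublets. As a mean over cells Ccl12 (log2 ratio 0.73) and Ccl25 (-0.78) were not past 2-fold. In endothelial-like cells 3 of 7 were, against 3.01%: Ccl8 with 33 of 41 TBI UMIs in 1 cell, Ccl5 with 33 of 51, and Ccl21a, lower in TBI. Without predicted doublets 4 Sham and 2 TBI UMIs of Ccl8 were left, and its direction turned. The macrophage marker list summed to 317.5 CPM in Sham fibroblast-like cells, with 9 of 18 genes at 0, and 1095 in TBI, with none at 0. In endothelial-like cells it summed to 352.7 and 752 CPM. Its part in these values was not tested.

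Ccl21a, which guides cells bearing Ccr7 into lymphatic vessels, had 48 UMIs, of which 44 were in 1 Sham endothelial-like cell. That cell also held 5 UMIs of Prox1 and 5 of Flt4, both markers of lymphatic endothelium, and 2 of Pdpn. Only 1 of 297 Sham and 3 of 538 TBI endothelial-like cells held 3 or more of the lymphatic markers, so lymphatic vessel cells were hardly sampled.

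No class held most of the UMIs of Ccl25 or of Ccl27a. Ccl25, best known from thymus and gut, had 266 UMIs in 260 cells and never more than 2 in a cell, and macrophage-like cells led with 19.17%. By CPM the Snhg11-led cluster was highest, at 66.27 CPM and in 12.15% of its cells, beside 9.921 CPM in macrophage-like cells. With clustering at a resolution of 0.4 or 1.6, fibroblast-like cells led. Ccl25 was in 1.522% of B cell-like cells and 4.458% of macrophage-like cells. Ccl27a, a skin chemokine, was led by choroid plexus-like cells (23.2%), with 13 and 29 UMIs, and fibroblast-like cells, with 5 and 31.

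The remaining 19 features were little or not detected. Ccl21a and Ccl11 (eotaxin-1; 30 UMIs, 20 in Sham and 10 in TBI) came closest to the limit of 50 UMIs. Cxcl1 had 11 UMIs, Cxcl3 2, Cxcl17 1 and Ccl28 1. Ccl20, Ccl26, Ccl27b, Cxcl5, Cxcl15, 2 features each of Ccl21b, Ccl21c and Ccl27a and another feature each of Ccl19 and Ccl21a had none. The Ccl19, Ccl21 and Ccl27 genes have near-identical copies, between which reads can be divided or lost, so their counts are uncertain.

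Ligand UMIs sat in few cells. Across the 25 described ligands the 10 richest cells of both libraries held a median of 34.74% of a ligand's UMIs, beside 6.542% over all 13086 features with 50 UMIs or more. The richest cells that together held 50% of the UMIs numbered a median of 22 for ligands and 159 for all features. For 9 of 25 ligands (36.0%) the 10 richest cells held more than 50%, as for 2.407% of all features. Among features of 500 to under 5000 UMIs these shares were 42.86% of 14 ligands and 0.8274% of all features.

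**Figure D4:**
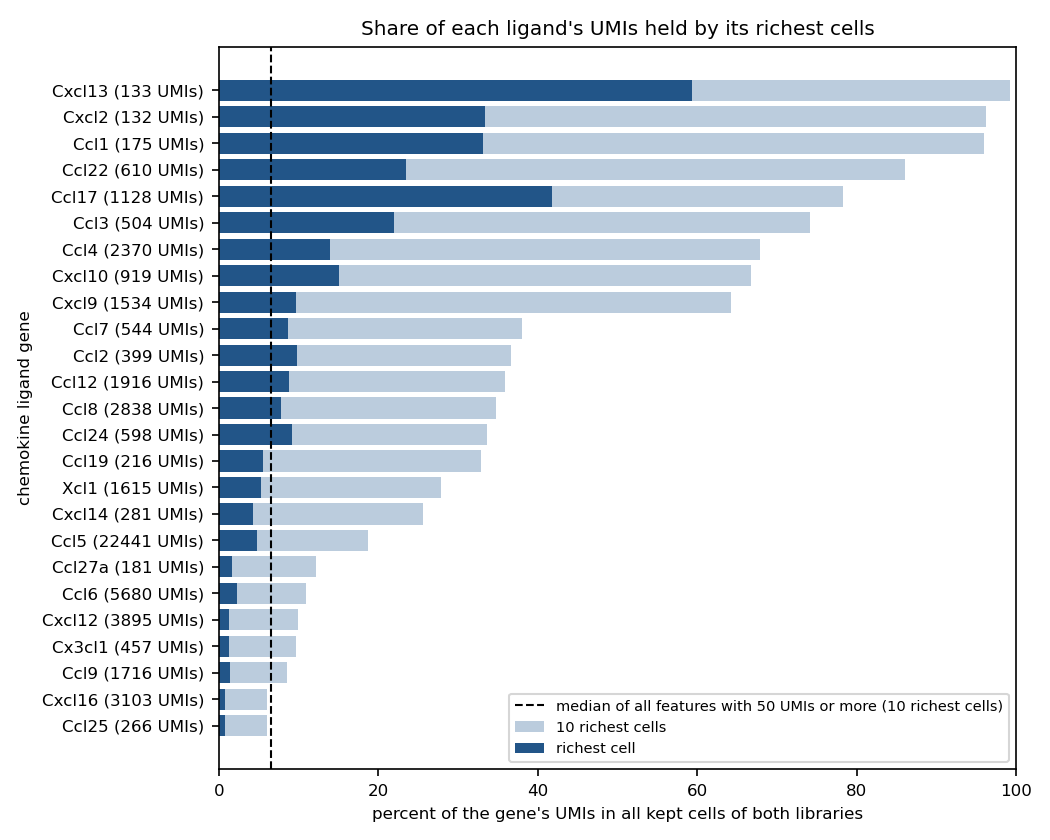
Percent of each ligand's UMIs, over all kept cells of both libraries, held by the richest cell (dark) and the 10 richest cells (light), for 25 ligands with their UMI totals. The dashed line marks the median of all features with 50 UMIs or more, 6.542%; Cxcl13 reaches 99.25% and Ccl25 and Cxcl16 lie below the line.

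The most concentrated ligands were Cxcl13 (99.25% in 10 cells), Cxcl2 (96.21%), Ccl1 (96.0%), Ccl22 (86.07%), Ccl17 (78.28%), Ccl3 (74.21%) and Ccl4 (67.85%). The least were Ccl25 (6.015%), Cxcl16 (6.059%), Ccl9 (8.566%), Cx3cl1 (9.628%), Cxcl12 (9.91%) and Ccl6 (10.95%). After the cells with 1000 UMIs or more were thinned to 1000, again 9 of 25 ligands had more than 50% of their UMIs in 10 cells.

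Many of the Sham to TBI ratios rested on few cells. Over the 11 classes compared, 22 of 68 ligand and class pairs were past 2-fold, 12 higher and 10 lower in TBI, where between 2.37% and 15.8% of all features were, by class. In 15 of these 22, 1 cell held more than 50% of the UMIs of the higher library. Clusters called by their leading gene were left out of the 11 classes. In the Slc38a5-led cluster Cxcl12 was at 1347 CPM in Sham and 380.2 in TBI (log2 ratio -1.83), with 25 of 41 Sham UMIs in 1 cell. All 95 TBI UMIs of Ccl5 in that cluster were in 1 cell. With the 3 richest cells of the gene left out of each library, Ccl3 and Ccl4 in macrophage-like and Cxcl9 in dendritic-like cells were still past 2-fold with 30 UMIs or more left. Another 3 pairs turned sign, and 8 were left with 3 counts or fewer in both libraries. In all, 12 of 46 pairs were past 2-fold under that treatment, 10 higher and 2 lower in TBI, and the 2 lower were Ccl3 and Ccl4 in NK cell-like cells. Each of the 11 classes had fewer Sham than TBI cells, so leaving out 3 cells takes a larger part of Sham. The effect of this on the counts and signs under that treatment was not tested. Of all features, 3.66% were then past 2-fold in macrophage-like, 2.33% in dendritic-like, 2.71% in NK cell-like, 4.03% in T cell-like and 33.4% in pericyte-like cells, the classes that held the 12. In the others, where no member was, it was 4.09% in endothelial-like, 18.6% in fibroblast-like, 4.23% in monocyte-like, 8.27% in proliferating-like, 4.31% in migratory dendritic-like and 12.7% in neutrophil-like cells.

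**Figure D5:**
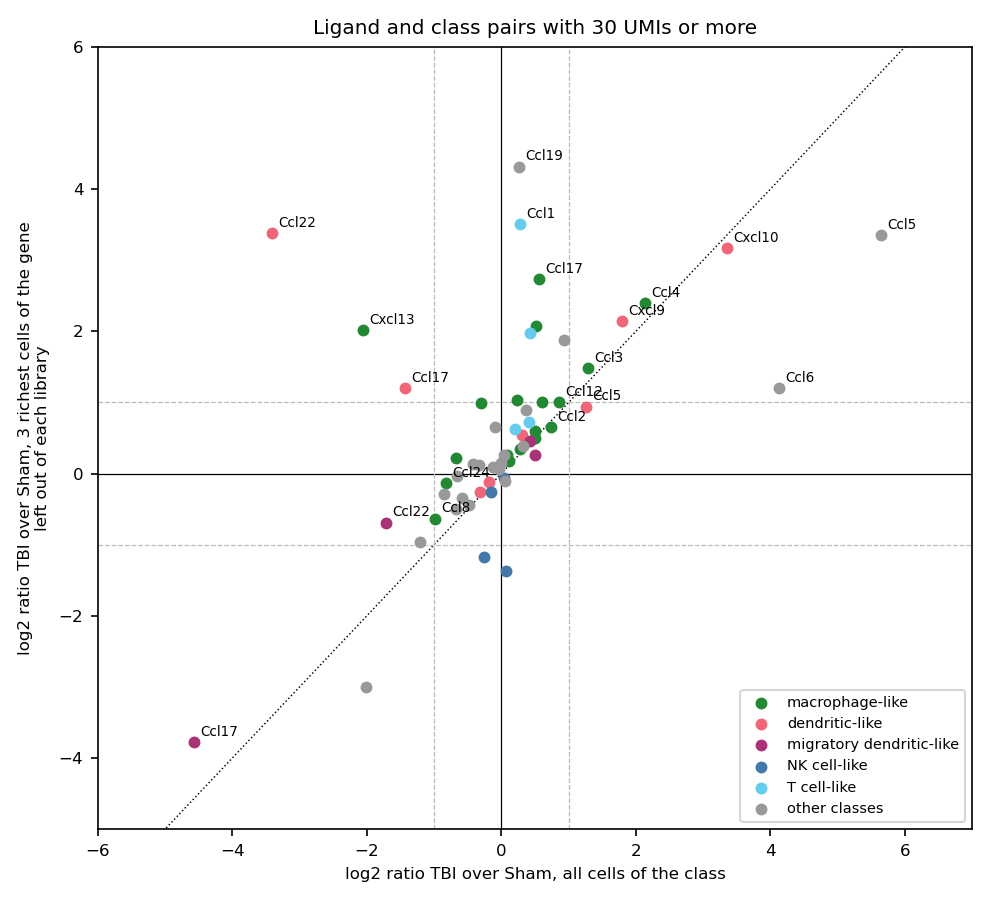
Log2 ratio of TBI over Sham for 59 ligand and class pairs, with all cells of the class (horizontal) and with the 3 richest cells of the gene left out of each library (vertical); 0.5 was added to each UMI sum, dashed lines mark 2-fold and the dotted line equality. For 13 pairs the 2 ratios differ in sign, and pairs left with 3 counts or fewer in both libraries are not drawn.

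No member was past 2-fold among 4 tested in T cell-like cells (4.03% of all features were), 4 in NK cell-like cells (2.67%) or 2 in pericyte-like cells (15.8%). In proliferating-like cells 4 of 6 were, against 6.44%: Ccl5 was higher in TBI, and Cxcl9, Ccl17 and Cxcl16 were lower. Without predicted doublets 9 Sham and 3 TBI UMIs of Ccl5 were left, and its direction turned. For Cxcl9 all 49 Sham UMIs were in 1 cell and TBI had none, and for Ccl17 44 of 45 Sham UMIs were in 1 cell. By UMI counts alone Cxcl9 was at least 24.63-fold lower against the floor, but with 1 such cell the class has no bound over cells. The macrophage marker list summed to 4468 CPM in Sham and 1062 in TBI proliferating-like cells, and its part was not tested.

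Many ligand genes lie side by side, and neighbours were compared by source and by cell. In the GENCODE annotation of GRCm38 all 25 described ligands matched by gene identifier, as protein-coding genes. Ccl2, Ccl7, Ccl12 and Ccl8 lie in that order at chr11:82035571-82116799, and Ccl5, Ccl9, Ccl6, Ccl3 and Ccl4 at chr11:83525778-83664683. Cxcl9 and Cxcl10 lie at chr5:92321347-92348889, and Ccl22, Cx3cl1 and Ccl17 at chr8:94745590-94812036. Of 11 pairs of described ligands that follow each other within 200 kb, 6 had the same leading class (54.55%), beside 68 of the 289 other pairs (23.53%). Ccl11, too low to be described, lies between Ccl7 and Ccl12.

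In macrophage-like cells thinned to 1000 UMIs, 923 in all, Cxcl10 was found in 42.31% of cells with Cxcl9 and in 1.784% of those without, the genes lying 18.6 kb apart. Ccl12 was found in 55.77% of cells with Ccl7 and 12.17% of those without (54.3 kb), and Ccl7 in 28.57% of cells with Ccl2 and 4.54% of those without (8.26 kb). Ccl8, only 11.8 kb from Ccl12, was in 26.67% of cells with Ccl12 and 15.61% without, a smaller gap than for the pairs before it. Ccl6 was in 42 of 105 cells with Ccl9 and in 27.87% of those without. Ligands on different chromosomes were also found together: Ccl12 was in 62.96% of the cells with Cxcl10 and 13.17% of those without, and Ccl2 in 40.74% and 3.46%. In 228 NK cell-like cells Ccl4 was in 56.25% of cells with Ccl3 and 10.38% without. These shares pool both libraries and are a description, since cells of 1 library share their source.

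Other neighbours differed in source. Cx3cl1, led by endothelial-like cells, lies between Ccl22 and Ccl17, led by migratory dendritic-like and dendritic-like cells. Ccl5, led by NK cell-like cells, lies 42.4 kb from Ccl9, led by macrophage-like cells. Of the 25 ligands, 8 are overlapped by a gene on the other strand, such as Art3 for Cxcl10 and Zmynd15 for Cxcl16, and none of the sources says whether reads were counted by strand.

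By pattern over the 21 classes (Pearson correlation of log2(CPM + 1), both libraries), the genes most like the 3 ligands with most UMIs were named. For Ccl5 they were AW112010 (0.79), Epsti1 (0.76) and Klre1 (0.76), for Ccl6 Lyz2 (0.96), Igsf6 (0.94) and Gm35853 (0.92), and for Cxcl12 Ltbp4 (0.96), Tgfb1i1 (0.96) and Osmr (0.95). The 21 points share 2 libraries, and the values are a description.

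Of the ligands outside the symbol rule, Pf4 (platelet factor 4, also called Cxcl4) had 10248 UMIs, 96.95% of them in macrophage-like cells, at 1765 CPM in Sham and 2008 in TBI (log2 ratio 0.19, 0.12 to 0.25), while Ppbp had 17. Pf4 was past 2-fold higher in TBI in both other classes compared that had 30 UMIs of it, with 2 and 36 UMIs in endothelial-like and 0 and 117 in fibroblast-like cells. Among 9 signalling receptor genes with 27 receptor and class pairs in the 11 classes compared, 4 pairs were past 2-fold higher in TBI and 1 lower. Of all features, 2.37% to 15.8% were, by class. The higher pairs were Xcr1 (41.17 and 85.98 CPM) and Cxcr3 in dendritic-like cells, and Ccr2 and Cx3cr1 in fibroblast-like cells. In fibroblast-like cells Ccr2 had 0 Sham and 44 TBI UMIs and Cx3cr1 0 and 34. The part of the macrophage marker list in these was not tested. The lower pair was Ccr2 in proliferating-like cells. None of 5 pairs of the atypical receptors Ackr3 and Ccrl2 in these classes was past 2-fold. The atypical receptor gene Ackr1 had 4 Sham and 67 TBI UMIs in the Slc38a5-led cluster (log2 ratio 1.95, 0.68 to 4.02), which is outside the 11 classes. Of 17 pairs in the 11 classes of the genes for the processing proteases Dpp4, Adam10 and Adam17, 2 were higher and 1 lower, against the same shares of all features.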

How the data were processed

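Droplet 3′ RNA libraries of pooled dorsal meninges, 1 Sham and 1 TBI, were used. The authors made the deposited UMI counts with Cell Ranger on mm10. The versions given differ: 2.1.1 in the processing notes of the labels, and others in the methods and matrix headers. The deposited counts are raw, and barcodes outside the study's filters are still in them. Barcodes with 150 to 5000 genes, at most 20% mitochondrial and at most 5% hemoglobin UMIs were kept. Counts were scaled to 10000 per cell, and 2000 variable genes without the ligands, 20 principal components, 20 neighbours and Leiden clustering (leidenalg 0.10.2, resolution 0.8) gave the clusters. A cluster took a name with 3 markers among its top 50 genes. UMIs were summed per class and library. Log2 ratios add 0.5 to each sum, with 95% exact binomial intervals that cover counting error only. A feature with 30 UMIs in a class was tested by size, past 2-fold, without a statistical test. A floor of 3 counts per library gave bounds against 0, which cover UMI counts only and not the spread between cells. Doublets were the cells most like simulated pairs, in a number set by the cell count of the library. The ratio computation was tested on simulated data.

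Ligands with 50 UMIs or more were named with their leading class. Other classes with 30 UMIs of a ligand are given in part and not in full. Clusters called by their leading gene were left out of the classes compared. For each of the 3 ligands with most UMIs, the 3 genes most alike by class were named. The members, gene lists and tests were chosen with earlier results of these data known. The Klra2-led, Cd209f-led, Gzma-led and Sema3g-led cluster values, and the detection of neighbouring genes, were chosen after values were seen. Python 3.11.15, numpy 2.4.6, scipy 1.17.1 and scikit-learn 1.9.0 were used. The cell type annotation of the authors was not used here. A receptor gene of the fixed list is not reported here.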

Additional observations from a re-analysis of the deposited data

Results flagged for a closer look

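Cxcl9 differed in direction between classes. Its log2 ratio of TBI over Sham was 1.788 in dendritic-like cells and 3.374 in migratory dendritic-like cells, where 89 of 90 TBI UMIs were in 1 cell. In proliferating-like cells it was -4.622 or lower by UMI counts alone, with TBI, at 0, set to the floor of 3 counts. All 49 Sham UMIs there were in 1 cell, so this is no bound over cells. The difference between classes was not tested.

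Ligand UMIs were also found in the barcodes left out for hemoglobin, 289 in Sham and 174 in TBI, which held 2.455 and 6.787 ligand UMIs per 10000. Ccl5 had 283 UMIs there, Ccl8 64, Cxcl10 43, Ccl6 34, Cxcl12 32 and Cxcl16 26. Ccl12 had 20, Ccl9 17, Cx3cl1 9, Ccl4 9 and Xcl1 4. These UMIs sat in few barcodes: 1 barcode held 39 of the 43 Cxcl10 UMIs, 1 held 36 of the 64 of Ccl8 and 1 held 18 of the 20 of Ccl12. Ccl5 was in 16 barcodes, with 65 UMIs in the richest. There is no control sample for these barcodes. Only ligands with more than 3 UMIs there were listed, so that each value lies above the limit of 3 counts follows from the choice.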

How the results depend on the processing

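The count of 22 pairs past 2-fold became 8 of 45 with at least 100 UMIs, 106 of 196 with at least 1 UMI and 12 of 46 without the 3 richest cells per library, and was 18 to 24 under the other 7 alternatives. The 12 pairs higher in TBI became 6 without predicted doublets, 3 at 100 UMIs and 66 at 1 UMI, and the 10 lower became 5, 40 and, without the 3 richest cells, 2. Of the 22, 11 of the 14 that still had a value kept their sign without the 3 richest cells. Without them the ratio turned to 2.014 for Cxcl13 in macrophage-like, 3.384 for Ccl22 in dendritic-like and 1.2 for Ccl17 in dendritic-like cells. Without doublets it turned to -1.813 for Ccl8 in endothelial-like and -1.78 for Ccl5 in proliferating-like cells, and with the mean over cells to -0.1913 for Ccl5 in dendritic-like cells. Fewer cells or higher limits leave fewer UMIs by construction, and no other cause was tested. By CPM in place of UMIs, 15 of 25 ligands had the same leading class, and 23 to 25 did under the other alternatives, where Xcl1 turned from NK cell-like to T cell-like at both other resolutions. The count of 9 ligands with over 50% in 10 cells was 9 under both alternatives. Per 10000 UMIs, ligands were higher in TBI in 5 of 11 classes, and in 5 to 7 under alternatives. The alternative without the shallow macrophage-like cluster was chosen after seeing the data. No paired analysis was possible because each group is 1 library and no comparison has a test. In classes with few cells, few UMIs limit the ratios.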
